A study of Mus musculus with 16 samples.

Results

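The 10 genes described here encode the machinery of the G1/S transition in murine T-ALL (T-cell acute lymphoblastic leukaemia) lines: the D cyclins Ccnd1, Ccnd2 and Ccnd3, their kinases Cdk4 and Cdk6, the E cyclins Ccne1 and Ccne2, and the E2F factors E2f1, E2f7 and E2f8. They were chosen by gene symbol, and all 10 have a row among the 13474 genes of the deposited expression table. RNA of 16 cultures was sequenced: 5 parental T-ALL lines and 11 derivatives resistant to a chemotherapy drug, each culture as 1 library. The comparisons are between lines, and between each derivative and the parental library of its line.

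D cyclins are made in response to growth signals and activate CDK4 and CDK6, which phosphorylate the retinoblastoma protein and its relatives and so release E2F factors. E2F1 activates genes of DNA synthesis, cyclin E among them, and cyclin E with CDK2 carries the cell into S phase. E2F7 and E2F8 are atypical E2F factors that repress the same genes later in the cycle. In developing T cells cyclin D3 and CDK6 are known as the main G1 pair, and both are linked to T-cell leukaemia.

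Lines 2883, 2696, 2641 and 2869 carried the Mcm2cre/cre genotype, which the labels call an Mcm2 hypomorph (Mcm2 encodes a subunit of the replication helicase), and line 7298 was SCL/LMO1 transgenic. The parental cultures of all 5 lines were treated with PBS. Cytarabine resistance was represented by derivatives of 7298, 2883 and 2869, vincristine resistance by 2883, 2696 and 2869, etoposide resistance by 2883 and 2696, prednisone resistance by 2883 and 2641, and methotrexate resistance by 2883 alone. The only non-Mcm2cre/cre line was 7298, so genotype and line cannot be told apart for it. All 16 cultures were labelled as thymus-derived T-cell leukaemia. The drug dose, the length of treatment or whether a derivative was 1 clone is not given in the sources used here.

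Each of the 8 T-lineage markers listed had a row, and their summed level was 3231 to 6188 CPM (reads of a gene scaled to the same total in every library) over the 16 libraries. Single markers varied more: Cd2 had 1.27 to 135 CPM and Rag1 379 to 3492, and each of the others had at least 85.7. None of 4 B-lineage and none of 4 erythroid markers had a row in the table, 1 of 4 myeloid markers did (Itgam, 2.74 to 33.1 CPM), and 1 of 4 stromal and epithelial markers did (Pdgfrb, 0.122 to 433 CPM); their part in the results below was not tested. Every resistant library was deeper (14066191 to 18956066 reads) than every parental one (12142124 to 13498400 reads), and depth and resistance cannot be told apart. A library is a mixture of cells at all stages of the cycle, and fewer cells in a stage and less RNA per cell cannot be told apart.

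Per kb of merged exons, the scale used here to compare levels of different genes, Cdk4 was the most abundant of the 10 transcripts, with a median of 140 RPKM (CPM per kb of merged exons) over the 16 libraries. Cdk6 followed with a median of 34.8 RPKM, Ccnd3 with 24.7, Ccne2 with 22.8, E2f1 with 15.6 and E2f8 with 15.4. Ccne1 had a median of 5.59 RPKM and E2f7 of 1.38, Ccnd1 had 0.160, and Ccnd2 had no read in most libraries. The order Cdk6, Ccnd3 and Ccne2 is one of medians only, since their ranges over the libraries overlapped (16.3 to 151, 10.0 to 40.4 and 15.6 to 39.7 RPKM). E2f1 and E2f8 also overlapped, at 10.0 to 30.5 and 8.62 to 29.4 RPKM. Whether reads in introns were counted is not given in the sources used here, and such reads would raise genes with long introns on this scale. Gene span over exon length was 13.5 for Cdk6 and 10.8 for Ccnd3, against 1.35 for Cdk4 and 2.12 for Ccnd1. The order above and the shares per exon length below carry this limit. All other levels below are in CPM and compare libraries for 1 gene.

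**Figure D1:**
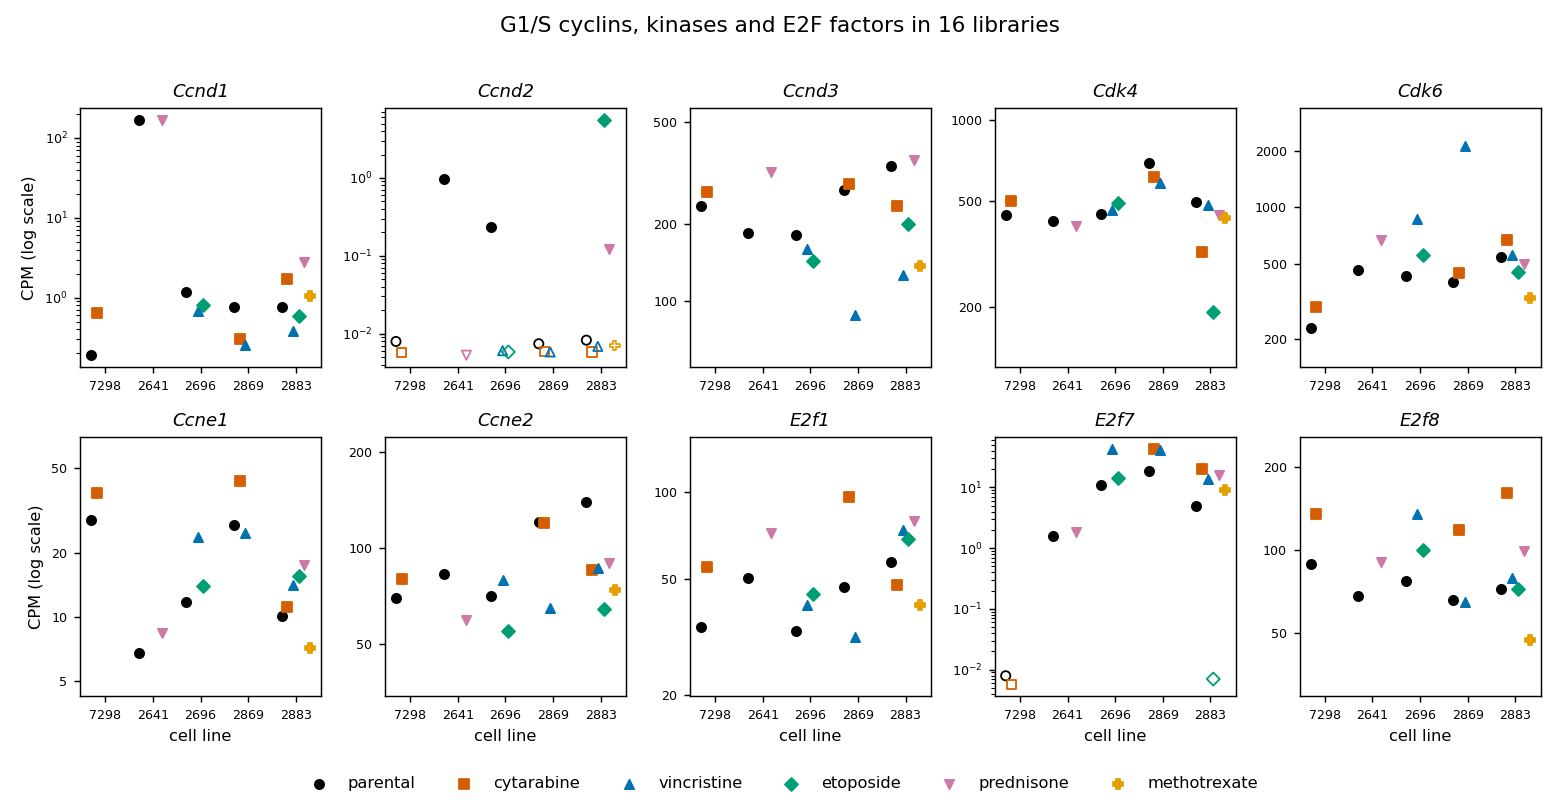
Level in CPM on a log scale (y axis) of each of the 10 genes by cell line (x axis), 1 point per library, with colour and symbol for the parental state or the drug and open symbols for libraries with 0 reads of the gene. Ccnd1 stands near 170 CPM in both libraries of line 2641 and under 3 in the other 14, Cdk6 peaks at 2108 CPM in the vincristine derivative of 2869, and E2f7 has 0 reads in both 7298 libraries and in the etoposide derivative of 2883.

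Ccnd3 (chr17:47505051-47599691, plus strand, mm10) supplied nearly all D-cyclin mRNA in 4 of the 5 lines. Its parental levels were 335 CPM in 2883, 272 in 2869, 235 in 7298, 184 in 2641 and 181 in 2696. In the 11 derivatives it ranged from 88.1 to 354 CPM, with a median of 199. The 2 ranges overlapped, but 5 derivatives lay below every parental library: the vincristine derivatives of 2869 (88.1), 2883 (125) and 2696 (159), the methotrexate derivative of 2883 (137) and the etoposide derivative of 2696 (143).

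Against its own parental library, Ccnd3 was at 0.324 times the level in the vincristine derivative of 2869 (95% exact binomial interval 0.305 to 0.344), at 0.375 in that of 2883 (0.354 to 0.396) and at 0.880 in that of 2696 (0.832 to 0.931). The ratio was 0.410 in the methotrexate derivative, 0.594 and 0.787 in the etoposide derivatives of 2883 and 2696, and 0.699 in the cytarabine derivative of 2883. In the other 4 derivatives it was above 1, and highest in the prednisone derivative of 2641, at 1.73 (1.65 to 1.81). These intervals, and all others given for ratios, cover counting error only, and derivatives of 1 line share a parental library.

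Ccnd1 (chr7:144929931-144939925, minus strand) marked a single line. Line 2641 had 170 CPM in the parental library (2256 reads) and 168 CPM in the prednisone derivative (3180 reads). The other 14 libraries lay between 0.190 CPM in parental 7298 and 2.80 CPM in the prednisone derivative of 2883, that is between 2 and 48 reads. No library of another line came near line 2641, and within 2641 the derivative was at 0.988 times the parental level (0.936 to 1.04). Low counts limit the ratios elsewhere: the highest, 3.92 in the cytarabine derivative of 7298, rests on 11 reads against 2, with an interval of 0.857 to 36.4.

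As a share of D-cyclin mRNA per exon length, Ccnd1 made up 63.1% in parental 2641 and 49.6% in its prednisone derivative, and 0.144% to 1.45% in the other 14 libraries. The sum of the 3 D cyclins was 57.1 and 71.8 RPKM in the 2 libraries of 2641 and 10.1 to 41.0 RPKM elsewhere, so the D-cyclin total of 2641 lay above that of every other library. The lowest total was in the vincristine derivative of 2869. Of the other tabulated genes that start within 1 Mb of Ccnd1, Ppfia1 had 68.3 CPM in parental 2641 against 80.5 to 122 in the other parental libraries. Fadd, LTO1 and Bc1 lay within the range of the other parental libraries, and Tpcn2, an endolysosomal ion channel gene, was at 11.3 CPM against 4.37 to 10.0.

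Ccnd2 (chr6:127125162-127152193, minus strand) had 0 reads in 12 of the 16 libraries, and it did not pass the filter for testing. The etoposide derivative of 2883 had 80 reads (5.62 CPM) where its parental library had 0, so it was at least 22.7-fold higher, against a floor of 3 reads. Parental 2641 had 13 reads, parental 2696 had 3 and the prednisone derivative of 2883 had 2. Even in the etoposide derivative Ccnd2 was only 2.55% of D-cyclin mRNA per exon length.

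**Figure D2:**
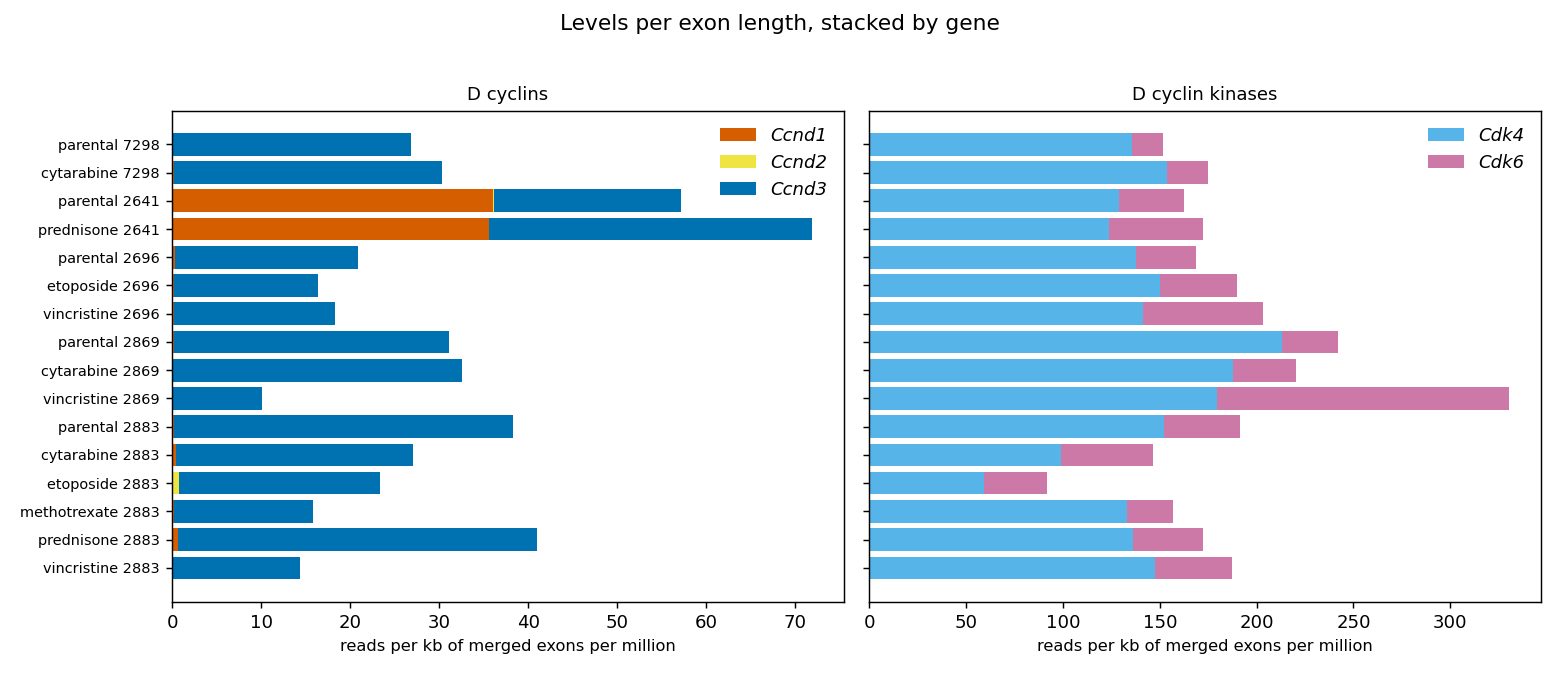
Levels in RPKM per merged exon length (x axis) of the D cyclins (left) and of their kinases (right), stacked by gene, with 1 bar per library grouped by line (y axis). Line 2641 carries Ccnd1 beside Ccnd3, with D-cyclin totals of 57.1 and 71.8 RPKM, and the vincristine derivative of 2869 has the lowest D-cyclin total and the largest Cdk6 part.

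Cdk4 (chr10:127063534-127067920, plus strand) had its lowest values in 2 derivatives of line 2883. Parental levels were 693 CPM in 2869, 495 in 2883, 447 in 2696, 440 in 7298 and 420 in 2641. The derivatives ranged from 192 to 611 CPM with a median of 460, and 8 of the 11 lay within the parental range. Below it were the prednisone derivative of 2641, at 403 CPM or 0.960 times its parental level (0.927 to 0.994), the etoposide derivative of 2883, at 192 CPM or 0.388 times its parental level (0.370 to 0.406), and the cytarabine derivative of 2883, at 321 CPM or 0.648 (0.625 to 0.673).

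Cdk6 (chr5:3341485-3531008, plus strand) had parental levels of 548 CPM in 2883, 469 in 2641, 434 in 2696, 405 in 2869 and 228 in 7298. The vincristine derivative of 2869 had 2108 CPM, 5.21 times its parental level (5.06 to 5.36) and more than any other library. The vincristine derivative of 2696 came next with 863 CPM, a ratio of 1.99 (1.93 to 2.05), while that of 2883 had 557 CPM, a ratio of 1.02 (0.983 to 1.05). Of the other 8 derivatives, 5 were above their parental library, by at most 1.44 times, and 3 below, with the methotrexate derivative lowest at 0.605 (0.583 to 0.629). All 3 vincristine derivatives lay above the 5 parental libraries, that of 2883 by 557 against 548 CPM, and so did the cytarabine derivative of 2883, the etoposide derivative of 2696 and the prednisone derivative of 2641.

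Per exon length, Cdk6 made up 45.6% of the Cdk4 and Cdk6 mRNA in the vincristine derivative of 2869, against 11.9% in its parental library. In the other 15 libraries its share was 10.8% to 35.6%. The second highest share was that of the etoposide derivative of 2883, 35.6% against 20.5% in its parental library, where Cdk4 was at 0.388 and Cdk6 at 0.834 times the parental level.

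In the vincristine derivative of 2869 the neighbours of Cdk6 were high as well. Of 16 genes with at least 20 reads that start within 1 Mb of Cdk6, 14 were at least 2-fold above parental 2869, with a median ratio of 5.73, where 8.55% of all 11578 genes measured in that pair were at least 2-fold higher. Akap9, a scaffold protein gene, was at 6.59 times its parental level, Ankib1 at 7.41, Krit1 at 4.65 and Cyp51, a sterol synthesis gene, at 4.62. The 2 exceptions were the gene model Gm15772 on the other side of Cdk6, at 0.822, and Rps4x-ps, at 0.508. The median ratio of the same window was 0.876 to 1.15 in the other 10 derivatives.

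From Cdk6 to Abcb1a on chromosome 5, 20 of 23 genes with at least 20 reads were at least 2-fold higher in the same derivative. Their median ratio was 6.25. Gm15459 and Tubb4b-ps1, which start 2.44 and 3.84 Mb from Cdk6, were at 1.10 and 1.15 times the parental level. Tubb4b-ps1, and Rps4x-ps nearer Cdk6, are pseudogenes by name. How reads common to them and to similar genes were counted is not given in the sources used here. Beyond Tubb4b-ps1, Sri was at 19.0, Dbf4, which encodes the activator of the CDC7 replication kinase, at 8.55, Rundc3b at 24.5 and Abcb1a at 248. The last encodes a drug efflux pump that transports vincristine and etoposide, and it starts 5.32 Mb from Cdk6; it has a close paralog, Abcb1b, and how reads common to both were counted is not given in the sources used here.

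The stretch from Sri to Abcb1a was also high in both the vincristine and the etoposide derivative of 2883, without Cdk6. There Dbf4 was at 27.7 and 19.5 times the parental level and Abcb1a at least 21196-fold and 15206-fold higher, against a floor of 3 reads, while Cdk6 was at 1.02 and 0.834. In the vincristine derivative of 2696, Abcb1a was at 41.7 times its parental level, Dbf4 at 2.74 and Cdk6 at 1.99, and 2 of the 16 neighbours within 1 Mb of Cdk6 were at least 2-fold higher. In the etoposide derivative of 2696, Abcb1a was at 67.0 times its parental level with Sri at 0.897, Dbf4 at 1.02, Rundc3b at 1.77 and Cdk6 at 1.29. Derivatives resistant to other drugs had 0 to 3 genes from Cdk6 to Abcb1a at least 2-fold higher. The cytarabine derivative of 2883 had 3 of 24, with a highest ratio of 21.0 and a median of 1.17. Genes other than Cdk6 in these 3 paragraphs, and the neighbours of Ccnd1, were picked out with their values known.

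**Figure D3:**
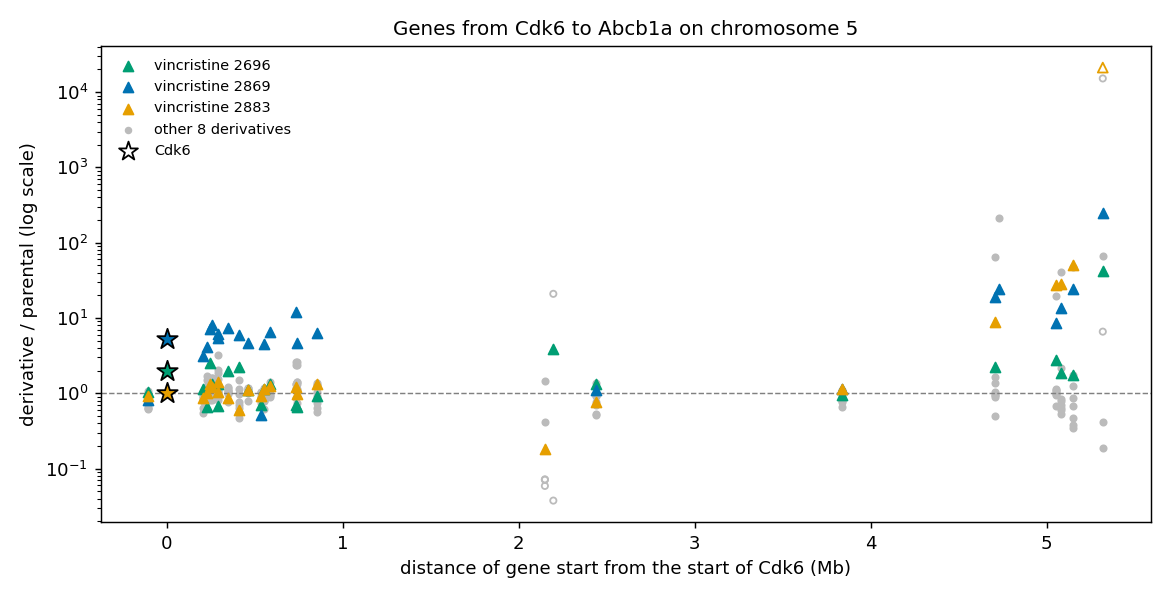
Ratio of derivative to parental library on a log scale (y axis) for Cdk6 (stars, 3 vincristine derivatives) and for the genes that start within 1 Mb of Cdk6 or between Cdk6 and Abcb1a with at least 20 reads, against distance in Mb from the start of Cdk6 (x axis); open symbols are bounds against 3 reads. In the vincristine derivative of 2869 Cdk6 and 14 of 16 neighbours within 1 Mb stand between 3.11 and 11.9, the genes near 2.44 and 3.84 Mb stand near 1, and those from Sri to Abcb1a stand above 8.

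Among the E cyclins, Ccne2 was the more abundant per exon length in every library, with Ccne1 making up 8.74% to 38.8% of the E-cyclin mRNA. Ccne1 (chr7:38097984-38107534, minus strand) differed by line: its libraries held 6.78 to 8.45 CPM in 2641, 7.19 to 17.6 in 2883, 11.8 to 23.7 in 2696, 24.9 to 43.8 in 2869 and 28.6 to 38.5 in 7298. Lines 2869 and 7298 lay above all libraries of the other 3 lines and overlapped each other, as did 2641 with 2883 and 2883 with 2696. Parental Ccne1 levels were 28.6 CPM in 7298, 27.0 in 2869, 11.8 in 2696, 10.1 in 2883 and 6.78 in 2641.

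Ccne1 was above the parental level in 9 of 11 derivatives, with ratios from 0.709 in the methotrexate derivative (0.539 to 0.930) to 2.01 in the vincristine derivative of 2696 (1.66 to 2.43) and a median of 1.34. Next to the highest were the prednisone derivative of 2883, at 1.73 (1.40 to 2.16), the cytarabine derivative of 2869, at 1.62 (1.43 to 1.85), and the etoposide derivative of 2883, at 1.54 (1.23 to 1.93).

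Ccne2 (chr4:11191351-11204779, plus strand) stood the other way, below the parental level in 9 of 11, with ratios from 0.463 in the etoposide derivative of 2883 (0.426 to 0.502) to 1.14 in the cytarabine derivative of 7298 (1.05 to 1.24) and a median of 0.645. Parental Ccne2 levels were 139 CPM in 2883, 120 in 2869, 82.9 in 2641, 70.4 in 2696 and 69.8 in 7298. The derivatives held 54.7 to 119 CPM with a median of 79.5, so the ranges overlapped, and all 5 derivatives of 2883 lay below their parental library, which was the highest of the 16.

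E2f7 (chr10:110745439-110787384, plus strand) and E2f8 (chr7:48866429-48881596, minus strand) are shown with their promoters, because they are the 2 of the 7 genes with a RefSeq promoter entry whose window holds an E2F motif, and because E2f7 differed between lines and E2f8 had the smallest unadjusted p of the group in a drug comparison (limma adjusted p = 0.494). The windows run from 250 bases before to 50 after the RefSeq start in build GRCm38.p6, 5′ to 3′ on the strand of the gene, with motif matches in capitals. The E2f7 window is chr10:110745189-110745488 on the plus strand and the E2f8 window is chr7:48881547-48881846 on the minus strand.
E2f7: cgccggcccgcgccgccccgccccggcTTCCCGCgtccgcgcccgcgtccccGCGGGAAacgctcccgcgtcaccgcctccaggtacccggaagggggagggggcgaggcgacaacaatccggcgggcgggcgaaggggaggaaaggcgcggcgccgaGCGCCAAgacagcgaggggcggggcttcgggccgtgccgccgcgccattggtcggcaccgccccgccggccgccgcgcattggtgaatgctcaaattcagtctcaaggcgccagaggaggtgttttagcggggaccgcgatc
E2f8: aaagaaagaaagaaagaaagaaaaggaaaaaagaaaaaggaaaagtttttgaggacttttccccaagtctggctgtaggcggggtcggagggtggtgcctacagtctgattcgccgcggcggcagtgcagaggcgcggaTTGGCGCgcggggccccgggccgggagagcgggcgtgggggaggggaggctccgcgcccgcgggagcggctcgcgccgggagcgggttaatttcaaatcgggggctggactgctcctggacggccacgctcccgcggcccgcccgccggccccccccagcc
The motif letters searched on both strands were TTCCCGC, the variant TTGGCGC and the variant TTCGCGC, and the matches printed do not overlap. E2f7 has 3 matches, starting at bases 28, 53 and 159 of the window counted from its 5′ end, and E2f8 has 1, starting at base 140. Of all 32544 mouse promoter windows of the same length, 8.12% hold at least 1 match and 0.879% at least 2. The windows of E2f1, Ccne1, Cdk4, Cdk6 and Ccnd3 held none of these letters, and Ccnd1, Ccnd2 and Ccne2 had no entry. For E2f1 and Cdk6 the window (chr2:154569377-154569676 and chr5:3343643-3343942) lies wholly inside the gene as annotated by GENCODE. The bases before the GENCODE start of these genes were therefore not searched, and their lack of a match covers the RefSeq window only.

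E2f7 had its lowest parental levels in lines 7298 and 2641. Both 7298 libraries had 0 reads, which allows up to 3 reads of 12613019 and 17674653. Line 2641 had 1.59 CPM in the parental library and 1.85 in its derivative, and parental levels elsewhere were 4.87 CPM in 2883, 10.9 in 2696 and 19.0 in 2869. No library of 2696 (10.9 to 42.8 CPM) or 2869 (19.0 to 42.3) overlapped one of 2641 or 7298, while 2696 and 2869 overlapped each other. Line 2883, with 0 reads in its etoposide derivative and up to 20.1 CPM in the others, overlapped the other 4 lines.

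Among the 10 derivatives with E2f7 reads in at least 1 library of the pair, 9 were above their parental library. The ratio was 4.14 in the cytarabine derivative of 2883 (3.14 to 5.56), 3.93 in the vincristine derivative of 2696 (3.28 to 4.74), 3.28 in the prednisone derivative of 2883 (2.47 to 4.42) and 2.88 in the vincristine derivative of 2883 (2.14 to 3.91). In line 2869 it was 2.23 with cytarabine resistance (1.93 to 2.58) and 2.19 with vincristine resistance (1.90 to 2.54). The exception was the etoposide derivative of 2883, which had 0 reads of E2f7 where its parental library had 59, and so was at least 23.1-fold lower. Of 8 neighbours within 1 Mb of E2f7 in that derivative, 3 were at least 2-fold lower, where 9.38% of 12446 genes in that pair were. They were Phlda1 at 0.077, Nap1l1 at 0.326 and Bbs10 at 0.499, while Rpl6l was at 1.90. Phlda1 was also below the parental level in the other derivatives of 2883, where E2f7 was above it. Its ratios there were 0.574 with cytarabine, 0.182 with vincristine, 0.238 with methotrexate and 0.435 with prednisone resistance.

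E2f8 had parental levels of 88.5 CPM in 7298, 77.3 in 2696, 72.1 in 2883, 68.0 in 2641 and 65.5 in 2869. The 3 cytarabine derivatives had 134 CPM in 7298, 160 in 2883 and 118 in 2869, all above every parental library. Their ratios were 1.52 (1.41 to 1.63), 2.22 (2.05 to 2.40) and 1.80 (1.66 to 1.95). The vincristine derivative of 2696 reached the same range, at 135 CPM and a ratio of 1.75 (1.62 to 1.88), while those of 2883 and 2869 were at 1.09 and 0.983. The methotrexate derivative was lowest, at 46.9 CPM and a ratio of 0.650 (0.587 to 0.720).

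E2f1 (chr2:154559407-154569892, minus strand) had parental levels of 57.2 CPM in 2883, 50.6 in 2641, 47.1 in 2869, 34.3 in 7298 and 33.2 in 2696. The derivatives held 31.6 to 96.3 CPM with a median of 54.9, and 8 of 11 were above their parental library. Line 2869 held both extremes: its cytarabine derivative was at 2.05 times the parental level (1.87 to 2.25) and its vincristine derivative at 0.671 (0.597 to 0.754). Per exon length, E2f7 made up at most 28.1% of the E2f7 and E2f8 mRNA, in the vincristine derivative of 2869, with a median of 7.88% over the 16 libraries. In the cytarabine derivative of 2883, where E2f8 and E2f7 were high, E2f1 was at 0.836 (0.755 to 0.927).

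**Figure D4:**
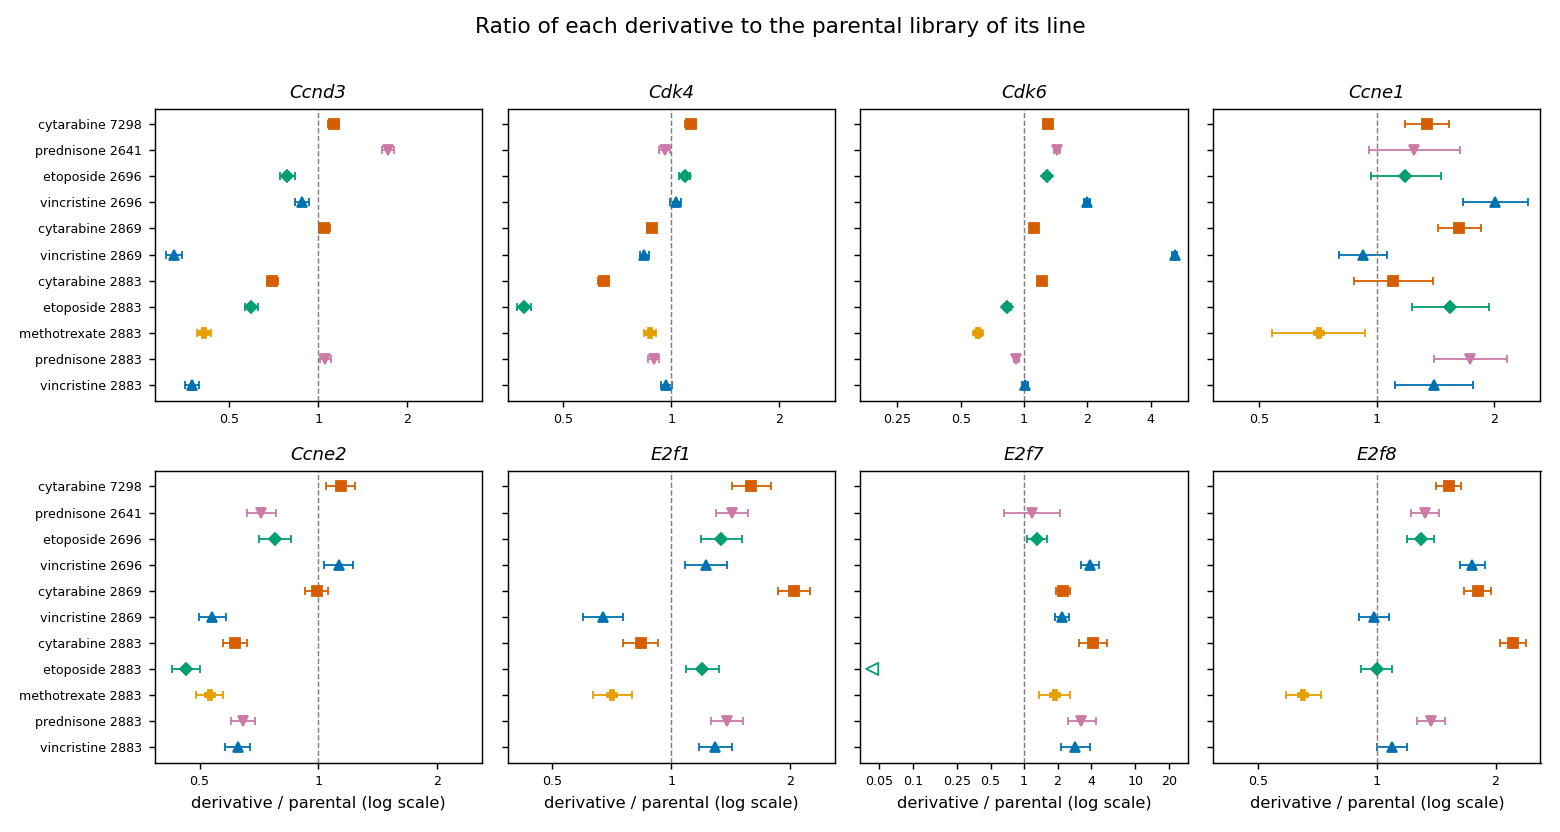
Ratio of each of the 11 derivatives to the parental library of its line on a log scale (x axis), by derivative (y axis), for 8 genes; bars are 95% exact binomial intervals on reads, and the open triangle is an upper bound against 3 reads. Ccne2 lies below 1 in 9 derivatives and E2f7 above 1 in 9 of 10, and Cdk6 stands apart at 5.21 in the vincristine derivative of 2869.

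Pooled over derivatives, 91 pairs of a gene and a derivative had at least 20 reads in 1 of the 2 libraries. Of these, 14.29% (13) were at least 2-fold higher and 6.59% (6) at least 2-fold lower, where 7.76% and 7.2% of all 132767 such pairs were. E2f7 gave 6 of the 13 higher pairs, and without it the share of higher pairs was 8.64% (7 of 81). Some of the rest entered only because the derivative was high, and so could not have counted as lower. These were Ccnd1 in the cytarabine and prednisone derivatives of 2883 (9 parental reads against 29 and 48). Ccnd2 in the etoposide derivative of 2883 (0 against 80 reads) entered in the same way. The rule for entry was the same for all genes.

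In the cytarabine derivatives, 3 of 9 genes were at least 2-fold higher in 2883 (Ccnd1, E2f7 and E2f8; 12.5% of all genes), 2 of 8 in 2869 (E2f1 and E2f7; 9.33%) and 0 of 7 in 7298 (2.22%). None of them was at least 2-fold lower in these 3 derivatives, where 6.85%, 4.28% and 5.99% of all genes were. In 7298 all 7 nonetheless stood above the parental level, E2f1 most.

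In the vincristine derivatives, E2f7 was at least 2-fold higher in all 3, alone in 2883 (9.21% of all genes), with Ccne1 in 2696 (5%) and with Cdk6 in 2869 (8.55%). Ccnd3 was at least 2-fold lower in 2883 (8.55%) and 2869 (6.76%), and no gene was in 2696 (11.2%).

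The etoposide derivative of 2883 had the most lower genes, with Cdk4, Ccne2 and E2f7 of 9 (9.38% of all genes), and 1 higher, Ccnd2 (13.5%). That of 2696 had none in either direction (4.24% and 5.43%). Prednisone resistance came with 2 of 9 at least 2-fold higher in 2883, Ccnd1 and E2f7 (8.71%), and none in 2641 (3.97%), and with none lower (5.49% and 8.23%). The methotrexate derivative, which has no second culture, had Ccnd3 at least 2-fold lower (6.84%) and none higher (7.52%), and 7 of its 8 genes were below the parental level. Of these, Ccne2 was at 0.530 times the parental level (0.490 to 0.573), E2f1 at 0.709 (0.634 to 0.793) and Cdk4 at 0.873 (0.842 to 0.905), and the exception, E2f7, was at 1.89 (1.38 to 2.61).

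Differences between lines were tested with limma on log2(CPM + 1) over 13261 genes, adjusting for drug, by a moderated F test of the 5 line terms. Of the 9 genes tested, 3 differed between lines at a Benjamini-Hochberg adjusted threshold of 0.05, where 26.3% of all genes did, so the group's share was close to that of all genes, and the same 3 were past an unadjusted p of 0.05 (41.4% of all genes). They were Ccnd1 (F = 85.0, adjusted p = 2.99e-05), E2f7 (F = 16.4, adjusted p = 0.00415) and Ccne1 (F = 10.4, adjusted p = 0.0131). Between the highest and the lowest line the fitted difference on this log2 scale was 6.72 for Ccnd1, 5.05 for E2f7 and 2.06 for Ccne1, and 0.41 to 1.14 for the other 6 genes. The E2f7 difference is overstated, since its fitted level in 7298 was -0.56, below the 0 that this scale allows. On the same scale parental E2f7 levels ran from 0.01 in 7298 to 4.32 in 2869. Cdk6 had F = 1.70 and adjusted p = 0.333, and without the vincristine library of 2869 it was called as well, with F = 6.68 and adjusted p = 0.0491.

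For each drug, the derivatives were compared with the parental libraries with line as a block, and fold changes are on the log2(CPM + 1) scale, which understates those of low genes. None of the 9 genes passed the adjusted threshold for any drug, and 0% of the 13261 genes did. At an unadjusted p under 0.05, cytarabine had 1 of the 9, which was higher, where 9.42% of all genes were (5.38% higher and 4.04% lower). Vincristine had 2, 1 higher and 1 lower, against 13% (5.19% and 7.84%). Etoposide had 2, both lower, against 8.68% (3.69% and 4.99%). Prednisone had 0, against 8.46% (4.23% and 4.23%). For all 11 derivatives against the 5 parental libraries, 0 of the 9 reached it, where 8.33% of all genes did (3.4% higher and 4.93% lower).

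E2f8 in cytarabine resistance had the smallest p of the group in any drug comparison. It was 0.95 ± 0.17 (SE) higher on the log2 scale, in 3 of 3 derivatives, with an unadjusted p of 0.000335 that ranked 4 among all genes and an adjusted p of 0.494. Against the mean of the other 4 drugs, E2f8 was 0.94 ± 0.18 higher in cytarabine derivatives (unadjusted p = 0.000447, adjusted p = 0.497), and it was the only one of the 9 with an unadjusted p under 0.05, where 8.17% of all genes had one (5.94% higher and 2.23% lower). The other 4 drugs had equal weight in this mean. The single methotrexate library, with the lowest E2f8 level at 46.9 CPM, thus counted as much as each other drug. Leaving out 1 library at a time, the E2f8 estimate for cytarabine against the parental libraries stayed between 0.81 and 1.11.

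In vincristine resistance Ccnd3 was 1.01 ± 0.26 lower (log2 fold change -1.01, adjusted p = 0.227), in 3 of 3 derivatives, and Cdk6 was 1.17 ± 0.38 higher (adjusted p = 0.282), in 3 of 3. The Cdk6 ratio in the derivative of 2883 was only 1.02, with an interval (0.983 to 1.05) that includes 1. The Cdk6 estimate was 0.50 without the vincristine library of 2869 (adjusted p = 0.561). E2f7 was 1.11 ± 0.58 higher in vincristine and 1.15 ± 0.58 higher in cytarabine resistance (adjusted p = 0.448 and 0.551). In etoposide resistance Ccne2 had a log2 fold change of -0.75 ± 0.26 (adjusted p = 0.557), lower in 2 of 2 derivatives. E2f7 had -1.60 ± 0.68 (adjusted p = 0.568), which rested on 1 library: without the etoposide library of 2883 the estimate was -0.0013, and without that of 2696 it was -2.99. The Cdk4 estimate for etoposide, -0.61 ± 0.30 (adjusted p = 0.589), rested on the same library and was 0.093 without it.

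**Figure D5:**
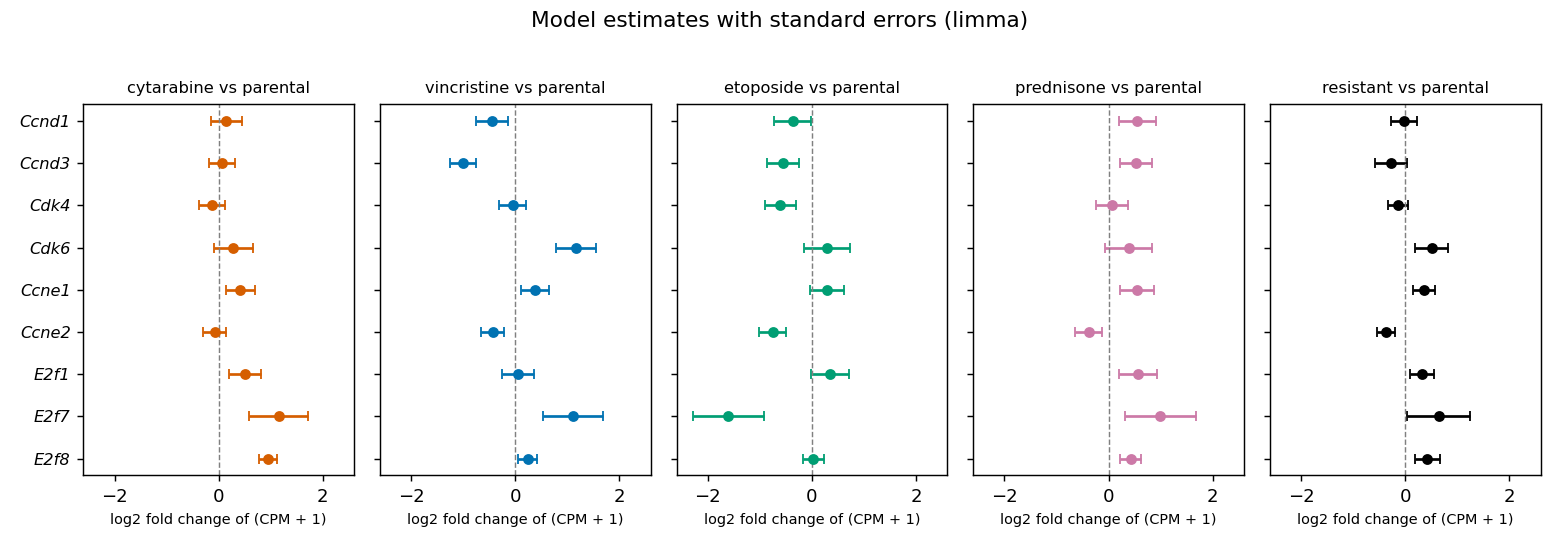
Estimated log2 fold change of CPM + 1 against the parental libraries (x axis) with its standard error for the 9 genes tested (y axis), for 4 drugs and for all 11 resistant derivatives together. E2f8 at 0.95 in cytarabine resistance has the smallest error relative to its size. In vincristine resistance Ccnd3 is lowest at -1.01, and Cdk6 at 1.17 lies beside E2f7 at 1.11, which has a larger error. No estimate passed the adjusted threshold.

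The median log2 fold change of the 9 genes was 0.28 in cytarabine resistance (0.02 over all genes), 0.05 in vincristine (-0.04), -0.37 in etoposide (-0.02) and 0.53 in prednisone resistance (-0.01). In prednisone resistance 8 of 9 estimates were positive, Ccne2 being the exception at -0.38 ± 0.26, but none was past an unadjusted p of 0.05. The fit takes line and drug together, and its Cdk4 estimate of 0.07 differed in sign from the ratios. Both prednisone derivatives were below their own parental library in Cdk4, at 0.893 in 2883 and 0.960 in 2641. The positive Ccnd1 estimate rests on 9 against 48 reads in 2883, with a ratio of 0.988 in 2641. For all derivatives together the median was 0.32 (-0.01 over all genes). Parental libraries are common to these comparisons.

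The other genes of the pathway were taken in 5 lists, all of whose members passed the filter. They were 7 further E2F and DP genes, 3 pocket protein genes and 7 CDK inhibitors. The rest were Cdk2 with regulators of the G1/S kinases and cyclins (10 genes) and E2F target genes of S phase (24 genes). None of these 51 genes passed the adjusted threshold for any drug or for resistance as a whole. Between lines, 1 of 7, 0 of 3, 3 of 7, 1 of 10 and 3 of 24 passed, against 26.3% of all genes.

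Among the CDK inhibitors, Cdkn2a, whose products p16 and p19ARF restrain CDK4/6 and stabilise p53, had the largest difference between lines (F = 383, adjusted p = 4.71e-07). All 6 libraries of 2883 held 108 to 150 CPM of it. Of the other 10 libraries, parental 2641 had 15 reads and 9 had 0. Its neighbour Cdkn2b, encoding p15, differed too (F = 30.3, adjusted p = 0.00071), at 2.27 to 3.55 CPM in 2883, 1.51 and 1.82 in 7298 and at most 0.0641 elsewhere. Cdkn1a, encoding p21, passed with an adjusted p of 0.0389, with 0.555 to 17.5 CPM in 2883 and 15.3 to 144 in 2869.

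Cdkn1b, encoding the CDK2 inhibitor p27, had the smallest p of the inhibitors in vincristine resistance, at -1.09 ± 0.29 (adjusted p = 0.237), and its level was below that of the parental library in 8 of 11 derivatives. In vincristine resistance and over all derivatives, 7 of 7 inhibitors had negative estimates, with list medians of -0.33 and -0.24 against -0.04 and -0.01 over all genes. The signs of Cdkn2a, Cdkn2b and Cdkn1c rest on few lines. They had enough reads for a ratio in only 6, 6 and 7 of the 11 derivatives, and were at or near 0 reads in the others. At an unadjusted p under 0.05 there was 1 of the 7 in each, Cdkn1b, where 13% and 8.33% of all genes were.

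Of the E2F, DP and pocket protein genes, E2f2, an activator like E2f1, was 0.75 ± 0.29 higher in cytarabine derivatives (adjusted p = 0.507) and 1.24 ± 0.30 higher there than in the other drugs (adjusted p = 0.556). Rb1, which encodes the retinoblastoma protein, was at -0.67 ± 0.26 in vincristine resistance (adjusted p = 0.339). Tfdp2, a DP partner, differed between lines (F = 9.20, adjusted p = 0.0173), at 41.1 to 57.9 CPM in 2696 and 80.9 to 156 in 2883.

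Of the regulators, Mnat1, a subunit of the CDK-activating kinase, differed between lines (F = 16.4, adjusted p = 0.00418), at 11.5 to 17.1 CPM in 2869 and 27.7 to 50.3 in the other 4 lines. Gsk3b, a kinase that marks D cyclins for degradation, was above the parental level in 10 of 11 derivatives, with an estimate of 0.50 ± 0.18 over all of them (adjusted p = 0.554). Fbxw7, which targets cyclin E for degradation, was at -0.54 ± 0.19 in vincristine resistance (adjusted p = 0.317).

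The 24 E2F target genes had positive estimates in 18 cases in cytarabine resistance and negative ones in 19 in etoposide resistance, with medians of 0.15 and -0.30 against 0.02 and -0.02 over all genes. Under an unadjusted p of 0.05 there were 4 higher and 0 lower in cytarabine resistance, where 5.38% and 4.04% of all genes were, and likewise 4 higher and 0 lower in vincristine resistance (5.19% and 7.84%), with Tyms and Cdc6 at 1.08 ± 0.39 and 0.68 ± 0.27 (adjusted p = 0.320 and 0.345). In etoposide resistance there were 0 higher and 1 lower (3.69% and 4.99%). Mybl2, itself a cell-cycle transcription factor gene, was 0.69 ± 0.23 higher in cytarabine and 1.41 ± 0.27 higher in prednisone derivatives (adjusted p = 0.496 and 0.347). Ccna2, encoding cyclin A2, was at -0.56 ± 0.16 in etoposide resistance (adjusted p = 0.557). Rpa2, Ccna2 and Cdc6 differed between lines, with adjusted p of 0.00259, 0.0199 and 0.0426.

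Over the 16 libraries, the genes whose log2(CPM + 1) was most like that of Cdk6 included Ankib1 and Rbm48 (Pearson r = 0.90 and 0.86), both within 1 Mb of it. Both were among the neighbours at least 2-fold higher in the vincristine derivative of 2869, the library with by far the most Cdk6. How far the likeness rests on that library was not tested. Ccnd1 was matched by Plekhh2, Trdc and Yes1 (r = 0.98 for each), a likeness that rests on the 2 libraries of line 2641. E2f7 was most like Dock9 (0.92), Abhd15 (0.86) and Slc10a3 (0.86), Ccne1 like Mid1 (0.88), Sirt1 (0.87) and Zc3hav1 (0.85), and Ccnd3 like Rbm15 (0.83), Zeb1 (0.82) and 9330162G02Rik (0.81). The search covered 13252 genes, the libraries share lines and parental cultures, and these values are descriptions. Among the 9 genes themselves the highest of 36 correlations was Cdk6 with E2f7 (r = 0.58) and the lowest Ccnd1 with Ccne1 (r = -0.57).

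Several of these genes overlap a gene on the opposite strand, and whether the counting used strand is not given in the sources used here, so reads of the overlapping parts cannot be told apart. The overlapping gene was LTO1 for Ccnd1 (11.0 to 20.1 CPM over the 16 libraries), Bysl for Ccnd3 (28.7 to 77.5), Tspan31 for Cdk4 (24.99 to 73.0) and Ints8 for Ccne2 (36.2 to 85.5). In 14 libraries Ccnd1 was far below LTO1. Ccnd2, Cdk6, E2f7 and E2f8 overlap antisense transcripts of the annotation that have no row in the table.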

How the data were processed

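Expression of the 16 libraries was deposited by the authors as FPKM. Cutadapt, STAR and Partek were used with mm10, per the submitters' processing notes, which hold no version. How reads were counted is not given in the sources used here. Libraries were made with a stranded mRNA kit, per the labels' protocols. The deposited FPKM divides by the whole gene span with introns in all 13474 genes, so it was multiplied by span to give CPM. Each value includes an added 0.1 read, and the spacing of low values gave each library's depth and reads. Only 70.5% to 75.7% of a library's values from 0.5 to 200 reads were whole to within 0.05, and no count test was run.

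Intervals of ratios are 95% exact (Clopper-Pearson), and a library at 0 was set to 3 reads for bounds. RPKM for comparing genes used merged exons of GENCODE vM21, where 10 of 10 genes were found and whose coordinates are printed. Tests were run with limma 3.58.1 in R 4.3.3 (eBayes with a trend, Benjamini-Hochberg over all genes, two-sided) on log2(CPM + 1), for 13261 genes with at least 1 CPM in at least 2 libraries, with terms for line and drug (6 residual degrees of freedom) or line and resistance (10). The line pairs each derivative with its parental culture, as the labels name the same line. Each culture is 1 library, and p-values measure the spread left between cultures after these terms. Methotrexate, with 1 derivative, was not tested against its parental library, but it was among the drugs set against cytarabine. The fit was also run on simulated data with independent noise and shifts common to all cytarabine libraries. Such data do not cover changes in single derivatives. All libraries carry the same batch label.

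Named are the 10 genes, list genes past the threshold or with up to the 4 smallest p per list and comparison, and, for genes ranging at least 4-fold, the 3 genes of highest correlation; further names were chosen after their values were seen. A gene that the correlation rule selects is not reported here. The genes and lists were chosen with earlier results of these data known. Alternatives were no line block, log2(FPKM + 1), leaving out each library, no filter, a pseudocount of 0.1 and scaling by median of ratios. Promoters are from RefSeq (GRCm38.p6), which had an entry for 7 of the 10 genes.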

Additional observations from a re-analysis of the deposited data

Results flagged for a closer look

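Ccnd1 in parental 2641 stood apart from the other 4 parental libraries: its gap to the nearest of them, divided by the whole range of the group, was 0.8779 on the log2(CPM + 1) scale, above the critical value of 0.71 for 5 samples. It was the only one of 10 genes to stand apart by this measure, which chance passes in about 1 of 20 groups. The prednisone derivative of the same line, a separate library, held the same level (168 against 170 CPM).

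Both derivatives of 2696 were above their parental library in Cdk4 (lowest ratio 1.029, 95% interval 0.994 to 1.06), while all 5 derivatives of 2883 (highest ratio 0.9686, interval 0.936 to 1.003) and both of 2869 (highest ratio 0.8822, interval 0.858 to 0.907) were below theirs. The intervals of the first and second of these include 1, the difference between lines was not tested, 27 pairs of gene and lines were compared in this way, and derivatives of 1 line share a parental library.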

How the results depend on the processing

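No gene of the 10 was called for any drug or for resistance under any alternative run, and Ccnd1, E2f7 and Ccne1 were called between lines under all that keep the line terms. Without 1 library at a time the number of the 9 genes called between lines was 3 to 4.

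Without the line as a replicate block, 0 of the 9 genes were called for each drug, and 4 genes of all were called for vincristine. On log2(FPKM + 1), 2 genes of all were called for prednisone, 2 for cytarabine against other drugs and 1905 between lines, where fewer genes were tested (9309); without a filter, 1 was called for cytarabine against other drugs. Leaving out each library gave 0 to 1 genes called for cytarabine, 0 to 9 for vincristine, 0 to 33 for etoposide, 0 to 11 for prednisone, 0 to 2 for cytarabine against other drugs, 0 for resistance and 2521 to 3494 between lines. The cause of these differences was not tested.

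Of 1305 values of the 9 genes under alternatives, 1256 kept sign and side of the threshold, 1 became called and 48, of 19 estimates, took the other sign, with none past the threshold. Without the replicate block these were -1.24 for Ccnd1, 0.0098 for Ccne2 in cytarabine, 0.042 for Cdk4 in vincristine, -0.22 for Cdk4 and -0.24 for Ccne1 in prednisone, and -0.89 for Ccnd1 and 0.17 for Cdk4 in cytarabine against other drugs. Leaving out each library gave these log2 ranges. For cytarabine: Ccnd1 -0.027 to 0.43, Ccnd3 -0.091 to 0.28, Cdk4 -0.27 to 0.025, Cdk6 -0.089 to 0.66 and Ccne2 -0.23 to 0.19. For vincristine: Cdk4 -0.27 to 0.082 and E2f1 -0.27 to 0.50. For etoposide: Cdk4 -1.22 to 0.093, Ccne1 -0.065 to 0.60 and E2f8 -0.22 to 0.087. For prednisone: Ccnd1 -0.016 to 0.97 and Cdk4 -0.058 to 0.20. For cytarabine against other drugs: Cdk4 -0.20 to 0.20, Cdk6 -0.59 to 0.32, Ccne1 -0.012 to 0.60 and E2f1 -0.047 to 1.04. For resistance: Ccnd1 -0.13 to 0.10.

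Cytarabine against other drugs could not be estimated without the methotrexate library. Median-of-ratios scaling moved library medians by -0.06 to 0.07. Ratios at low counts (Ccnd1 outside 2641, Ccnd2, E2f7 in 2641) are limited by depth.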
